A study of Mus musculus with 4 samples.

Results

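The leukocyte integrins described here are 9 integrin subunit genes, Itgam, Itgax, Itgal, Itgad, Itgb2, Itga4, Itgb7, Itga9 and Itgb1, chosen by symbol from a table of 55487 genes. The choice was by name and role, with earlier results of these data known, and each symbol stood on 1 row. RNA was sequenced from adipocytes isolated from the perigonadal white fat, a visceral depot, of male mice. All mice were fed a standard diet. CKO mice were set against littermate controls, labelled WT by genotype and Ctrl in the design text, with 2 libraries each, called replicates 1 and 2 below. The labels explain neither the abbreviation CKO nor the cells in which an allele would be lost, and they give no age or strain. The series is titled for BLIMP1, a repressor of transcription made from Prdm1, and its part in macrophages. The 1 comparison of the design, CKO against WT, asks how the adipocyte preparation differs between these mice.

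Integrins are cell surface receptors made of an alpha and a beta subunit, and a subunit reaches the surface as part of such a pair. Itgb2 encodes the beta 2 chain, CD18, which is restricted to leukocytes and pairs with the alpha chains of Itgam (CD11b), Itgax (CD11c), Itgal (CD11a) and Itgad (CD11d). The alpha 4 chain of Itga4 pairs with beta 7 (Itgb7) or beta 1 (Itgb1), and the alpha 9 chain of Itga9 pairs with beta 1. Beta 1 is made by nearly every cell type and has many further alpha partners. In fat, CD11b marks myeloid cells and CD11c is widely used as a marker of macrophages that accumulate in obesity.

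Each library held between 24152081 and 26742547 reads assigned to genes. Reads were scaled by a size factor of each library (0.951 to 1.10), and values below are scaled reads unless reads are named. The preparation held adipocyte transcripts, with summed scaled reads of 6 adipocyte markers between 193175 and 666673. It also held macrophage transcripts: the sum over 7 macrophage markers (Adgre1, Csf1r, Cd68, Mertk, Fcgr1, Mrc1, Cd163) was 13220 and 19228 in CKO replicates 1 and 2, and 42781 and 150634 in WT replicates 1 and 2. Of these 7 markers 5 were lower in CKO at an unadjusted p under 0.05 in limma, as were 7.26% of all genes tested. WT replicate 2 stood apart, with the most macrophage marker reads and the fewest adipocyte and endothelial marker reads. Of 8 T cell markers, Cd3d, Cd3e, Cd3g and Cd8b1 had 1 to 7 reads in each library and Cd8a had 0. Cd4 had 12 to 38 reads and Lck 10 to 31. The summed scaled reads of the T cell list were 769 and 1068 in CKO and 593 and 200 in WT. Cd247 alone made up 696, 1017, 547 and 158 of these. The 8 neutrophil markers went in different directions, with summed scaled reads of 185 and 233 in CKO, and 312 and 430 in WT. Ly6g had 0 to 3 reads and Cxcr2 had 0 to 5, S100a8 was lower in CKO (log2 change -1.79, SE 0.44), and S100a9 and Camp were higher (2.21 and 3.06, SE 0.53 and 0.68). Other leukocyte lists held fewer reads than the macrophage list. Summed scaled reads were 4207 and 4238 in CKO and 3682 and 6292 in WT for 5 monocyte markers. F13a1 alone made up 3689, 2548, 2333 and 2833 of these. Of the 5 monocyte markers 3 were lower and 2 higher in CKO, where 48.9% of all genes tested were lower by sign. Ccr2 was at 464 and 1171 in CKO and 1249 and 3373 in WT. For 7 mast cell and eosinophil markers the sums were 65.1 and 104 against 192 and 354. For 6 dendritic cell markers the sums were 2365 and 3881 in CKO, above the 1813 and 682 of WT. Zbtb46 alone made up 2145, 3693, 1690 and 579 of the dendritic cell sums. Flt3 had 2 and 1 reads in CKO and 5 and 14 in WT. In such bulk RNA, fewer cells of a type and less RNA per cell cannot be told apart.

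Integrin subunit reads were lower in both CKO libraries than in both WT libraries for 7 of the 9 genes, namely Itgb2, Itgam, Itgax, Itgad, Itgb7, Itga4 and Itga9. Over all 16871 genes tested this was so for 26.8%. Itgal and Itgb1 were the 2 subunits whose groups overlapped. The log2 change from WT to CKO ran from -4.44 for Itgad to -0.16 for Itgb1, with a median of -2.67 over the 9 genes, where the median of all genes tested was 0.015. None of the 9 passed limma's threshold adjusted over all genes tested, with a smallest adjusted p of 0.459, and 0% of all genes tested passed in either direction. With voom weights 0 of the 9 passed as well. At an unadjusted p under 0.05, 7 of the 9 were lower and 0 higher in limma, where 7.26% of all genes tested were lower and 3.35% higher.

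**Figure D1:**
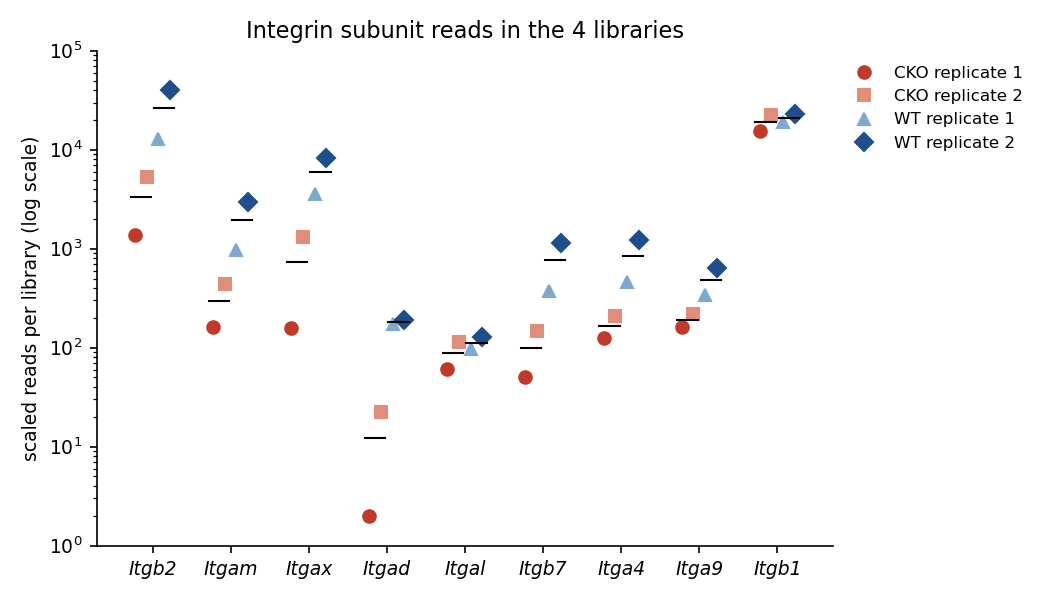
Scaled reads of the 9 integrin subunits on a log axis, with 1 point for each library and a bar at the mean of each group (n = 2). CKO replicate 1 is the lowest point and WT replicate 2 the highest for each of the 9 genes, and the groups overlap for Itgal and Itgb1. In reads before scaling, CKO replicate 2 is the highest for Itgal and Itgb1.

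The libraries stood in 1 order for most subunits. In scaled reads, CKO replicate 1 was lowest and WT replicate 2 highest for 9 of 9 genes, against 30.3% and 40.0% of all genes tested. For Itgal and Itgb1 the place of WT replicate 2 depended on the scaling. Before scaling, CKO replicate 2 was highest for both, with 126 reads against 121 in WT replicate 2 for Itgal, and 24722 against 21602 for Itgb1. It was highest for both as RPKM too, a scale defined below, at 0.717 against 0.705 and 226.5 against 202.5. The full order of CKO replicate 1, CKO replicate 2, WT replicate 1 and WT replicate 2 held for 7 of 9, against 17.0% of all genes tested. It is also the order of the macrophage marker sums given above, whose part in the integrin values was not tested.

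Itgb2, the shared beta chain of the CD11 integrins, lies on chromosome 10 of GRCm38 (77530252 to 77565708, plus strand). It had 1366 and 5915 reads in CKO replicates 1 and 2, and 12475 and 37807 in WT replicates 1 and 2. The libraries of the same group differed by 3.92 times in CKO and 3.07 times in WT, more than the 2.42 times between CKO replicate 2 and WT replicate 1. Scaled reads averaged 3363 ± 2821 (CKO) and 26353 ± 18949 (WT; SD, n = 2). This is a log2 change of -3.07 (SE 0.86, 95% interval -5.28 to -0.85), with an adjusted p of 0.459 in limma.

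Itgam encodes the alpha chain of Mac-1, the complement receptor CR3 of macrophages, monocytes and neutrophils. The gene spans 55.9 kb of chromosome 7 (128062640 to 128118491, plus strand). Reads numbered 160 and 484 in CKO replicates 1 and 2, against 931 and 2803 in WT. Both CKO values lay below both WT values, with means of 299 ± 197 and 1957 ± 1400 scaled reads (SD, n = 2). The log2 change was -2.67 (SE 0.73, 95% interval -4.54 to -0.79), at an adjusted p of 0.459 in limma. Of its 5024 exon bases, 68.7% also lie in exons of Gm49368, an annotated gene on the same strand that had 0 or 1 reads in each library. The assignment of reads that fit both genes was not given in the sources used here, so the level of Itgam against other genes is uncertain.

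Itgax encodes CD11c and follows Itgam after a gap of 11.1 kb (128129547 to 128150657, plus strand). CKO replicates 1 and 2 gave 157 and 1437 reads, below the 3421 and 7876 of WT. The CKO libraries differed from each other by 8.28 times (95% counting interval 7.01 to 9.82), more than for Itgb2 or Itgam, while the WT libraries differed by 2.33 times. Scaled reads averaged 729 ± 809 (CKO) and 5917 ± 3344 (WT; SD, n = 2). The log2 change of -3.58 (SE 1.07) had a 95% interval of -6.33 to -0.82 and an adjusted p of 0.459 in limma.

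Itgad encodes the alpha D chain, the least widely expressed partner of beta 2, found on some tissue macrophages. Its gene starts 3.72 kb after the end of Itgax (128154376 to 128223816, plus strand). It was represented by 2 and 25 reads in CKO, and by 166 and 183 in WT. Here the WT libraries were alike, at 182 ± 14.2 scaled reads, while CKO was at 12.3 ± 14.6 (SD, n = 2). Over the pooled reads of each group, 349 against 27, the WT to CKO ratio was 14.2 with a 95% counting interval of 9.59 to 21.9. That interval leaves out the spread between libraries, and the CKO libraries differed by 11.3 times (95% counting interval 2.82 to 98.5). The log2 change of -4.44 (SE 1.05, 95% interval -7.14 to -1.74) was the most negative of the 9, and 0.083% of all genes tested had a lower one. Its adjusted p was 0.459 in limma, and its size depends on the pseudocount, with -3.28 at a pseudocount of 10. Of the 50-base stretches in Itgad transcripts, 19.7% also occur in another gene, and 8.43% occur in Itgax. Itgax had more reads than Itgad in each library, and the assignment of reads that fit both genes was not given. What part of the Itgad reads could be shared is thus not known.

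Itgal encodes the alpha chain of LFA-1, an integrin of lymphocytes and many other leukocytes, and lies 728 kb before Itgam on the same chromosome (127296260 to 127335138, plus strand). Its reads were few in each library, 61 and 126 for CKO, 93 and 121 for WT. The groups overlapped, since CKO replicate 2 exceeded WT replicate 1. Mean scaled reads were 87.6 ± 37.5 and 112 ± 21.7 (SD, n = 2), and the log2 change was -0.40 (SE 0.48, adjusted p 0.707 in limma). The 95% interval of -1.64 to 0.84 allows differences of either sign.

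Promoter sequences of 6 of the 9 genes were found in RefSeq (GRCm38.p6), each with 250 bases before and 50 after a start site. The window of Itga9 (chr9:118711442-118711741) lies inside the gene, away from its annotated start at 118606690. Those of Itgam and Itgax are shown as neighbours that are both lower in CKO, that of Itgb7 as a lower gene elsewhere in the genome, and that of Itgb1 as a gene whose groups overlap. They are written 5′ to 3′ on the strand of the gene, with capitals marking matches, on either strand, to GAGGAA (a core of sites of the myeloid factor PU.1), GTGAAAG (a core of BLIMP1 sites) or TGTGGT (a core of RUNX sites). The windows are chr7:128062390-128062689 and chr7:128129300-128129599 on the plus strand, chr15:102231886-102232185 on the minus strand and chr8:128685404-128685703 on the plus strand.
Itgam: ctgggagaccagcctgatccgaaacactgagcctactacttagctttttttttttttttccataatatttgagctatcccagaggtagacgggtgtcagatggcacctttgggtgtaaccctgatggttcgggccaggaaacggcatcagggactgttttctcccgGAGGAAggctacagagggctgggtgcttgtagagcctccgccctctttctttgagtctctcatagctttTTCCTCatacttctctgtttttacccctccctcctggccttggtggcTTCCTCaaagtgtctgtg
Itgax: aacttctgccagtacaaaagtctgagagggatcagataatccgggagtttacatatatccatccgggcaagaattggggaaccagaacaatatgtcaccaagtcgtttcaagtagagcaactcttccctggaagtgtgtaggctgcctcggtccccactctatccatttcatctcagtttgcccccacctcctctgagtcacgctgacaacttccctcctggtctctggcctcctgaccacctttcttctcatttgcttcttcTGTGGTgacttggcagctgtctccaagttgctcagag
Itgb7: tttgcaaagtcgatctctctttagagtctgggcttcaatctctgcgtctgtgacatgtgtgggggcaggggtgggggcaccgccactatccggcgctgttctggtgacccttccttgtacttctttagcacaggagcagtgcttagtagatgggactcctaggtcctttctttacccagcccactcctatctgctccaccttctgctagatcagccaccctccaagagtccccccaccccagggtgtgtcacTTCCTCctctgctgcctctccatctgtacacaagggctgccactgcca
Itgb1: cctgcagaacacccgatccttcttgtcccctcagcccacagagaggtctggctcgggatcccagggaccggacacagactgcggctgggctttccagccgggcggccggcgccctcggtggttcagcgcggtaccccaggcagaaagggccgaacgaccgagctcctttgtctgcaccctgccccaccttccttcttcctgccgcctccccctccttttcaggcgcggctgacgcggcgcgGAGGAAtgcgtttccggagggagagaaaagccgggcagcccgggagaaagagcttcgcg
Of all 32851 promoters in the table, 28.3% hold GAGGAA or its complement, 16.8% hold TGTGGT and 4.24% hold GTGAAAG. Itgam holds GAGGAA 3 times, at -84, -15 and 33 from the start site, and Itgb7 and Itgb1 hold it once each, at 3 and -9. TGTGGT is found in the windows of Itgax, at 14, and of Itga4, at -60. GTGAAAG is in none of the 6 windows. These are matches of letters and show no binding.

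Itgb7, the beta chain of gut-homing lymphocyte integrins that is also found on some myeloid cells, lies on chromosome 15 (102215995 to 102231944, minus strand). Reads numbered 51 and 161 in CKO, against 362 and 1099 in WT. Both CKO libraries were below both WT libraries, at 98.5 ± 67.0 against 766 ± 551 scaled reads (SD, n = 2). The log2 change was -2.92 (SE 0.76, adjusted p 0.459 in limma), close to that of Itgb2. Its other alpha partner, Itgae, had 84 and 60 reads in CKO and 84 and 19 in WT, with a log2 change of 0.67 (SE 0.80).

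Itga4, which binds the endothelial ligand VCAM-1 when paired with beta 1 and MAdCAM-1 when paired with beta 7, lies on chromosome 2 (79255426 to 79333123, plus strand). CKO replicates gave 125 and 229 reads, WT replicates 443 and 1156. The groups did not overlap, at 166 ± 58.1 and 838 ± 534 scaled reads (SD, n = 2). The log2 change was -2.21 (SE 0.57, 95% interval -3.67 to -0.74, adjusted p 0.459 in limma). Of its exon bases, 8.04% lie opposite exons of Cerkl, which had 24 to 36 reads in each library.

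Itga9, a receptor for tenascin C, osteopontin and EMILIN-1 on neutrophils, lymphatic endothelium and muscle, lies on chromosome 9 (118606690 to 118901003, plus strand). It had 161 and 242 reads in CKO and 325 and 602 in WT. The groups did not overlap, at 190 ± 41.0 and 485 ± 209 scaled reads (SD, n = 2), and the log2 change was -1.29 (SE 0.42, adjusted p 0.459 in limma). This was less than that of the beta 2 and beta 7 chains in size.

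Itgb1, the broadly expressed beta 1 chain, lies on chromosome 8 (128685654 to 128733200, plus strand). It was abundant throughout, with 15461 and 24722 reads in CKO, and 18370 and 21602 in WT. CKO replicate 2 was above WT replicate 1, so the groups overlapped, at 18941 ± 4882 and 20894 ± 2573 scaled reads (SD, n = 2). The log2 change of -0.16 (SE 0.42, adjusted p 0.874 in limma) had a 95% interval of -1.25 to 0.93, and it was 0.012 with quantile normalisation.

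**Figure D2:**
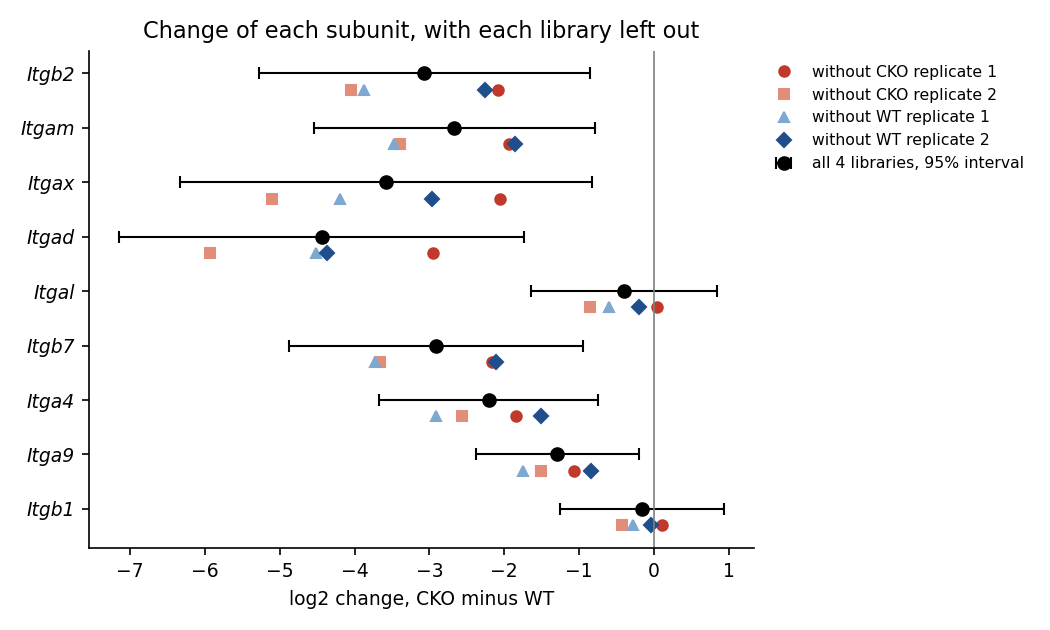
Log2 change from WT to CKO for each subunit, as a black point with its 95% interval in limma, and below it the change with 1 library left out. The intervals of Itgal and Itgb1 span 0, and the 7 other subunits stay below 0 with any 1 library left out.

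The size of the change rested on which library was used, while its sign held for the 7 subunits whose groups did not overlap. The median over the 9 genes was -1.86 without WT replicate 2, -1.94 without CKO replicate 1, -3.39 without CKO replicate 2 and -3.47 without WT replicate 1. Itgax went from -2.06 without CKO replicate 1 to -5.10 without CKO replicate 2, and Itgad from -2.95 to -5.93. Without CKO replicate 1, the subunits at an unadjusted p under 0.05 were 3, namely Itgax, Itgad and Itgb7, in place of 7, and over all genes the share called lower was 1.26% in place of 7.26%. Without WT replicate 1, 3 subunits passed limma's adjusted threshold, Itga4 (0.0442), Itgam (0.0468) and Itgb7 (0.0472), where the single WT library left is taken to spread as the CKO pair does. In that fit 5.56% of all genes tested passed as lower and 4.96% as higher, where 0% did with all 4 libraries. At an unadjusted p under 0.05 it called 17.0% lower and 17.0% higher, so the counts without WT replicate 1 given below stand against that background. The share of all genes called higher was 0.723% without CKO replicate 1, 1.11% without the other CKO library and 1.54% without WT replicate 2. Without CKO replicate 1 the log2 changes of Itgal and Itgb1 were 0.042 and 0.11.

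Alpha and beta partners can be compared within a library, where the scaling cancels. Per 100 reads of Itgb2, Itgam had 11.7 (95% counting interval 9.88 to 13.8) in CKO replicate 1, 8.18 (7.44 to 8.98) in CKO replicate 2, 7.46 (6.97 to 7.98) in WT replicate 1 and 7.41 (7.13 to 7.70) in WT replicate 2. The intervals of CKO replicate 2 and both WT libraries overlap, and that of CKO replicate 1 lies above them. Itgax had 11.5 reads per 100 of Itgb2 in CKO replicate 1, below the 24.3 in CKO replicate 2, the 27.4 in WT replicate 1 and the 20.8 in WT replicate 2. For Itgax the groups overlapped on this scale. Itgal had 4.47 and 2.13 in CKO, against 0.745 and 0.320 in WT, so both CKO values were above both WT values. The divisor, Itgb2, was itself lower in both CKO libraries. Itgad had 0.146 (0.0177 to 0.530) in CKO replicate 1, 0.423 (0.273 to 0.625) in CKO replicate 2, 1.33 in WT replicate 1 and 0.484 (0.416 to 0.560) in WT replicate 2. The counting intervals of CKO replicate 2 and WT replicate 2 overlap, so the order of these 2 libraries is not resolved at this depth.

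**Figure D3:**
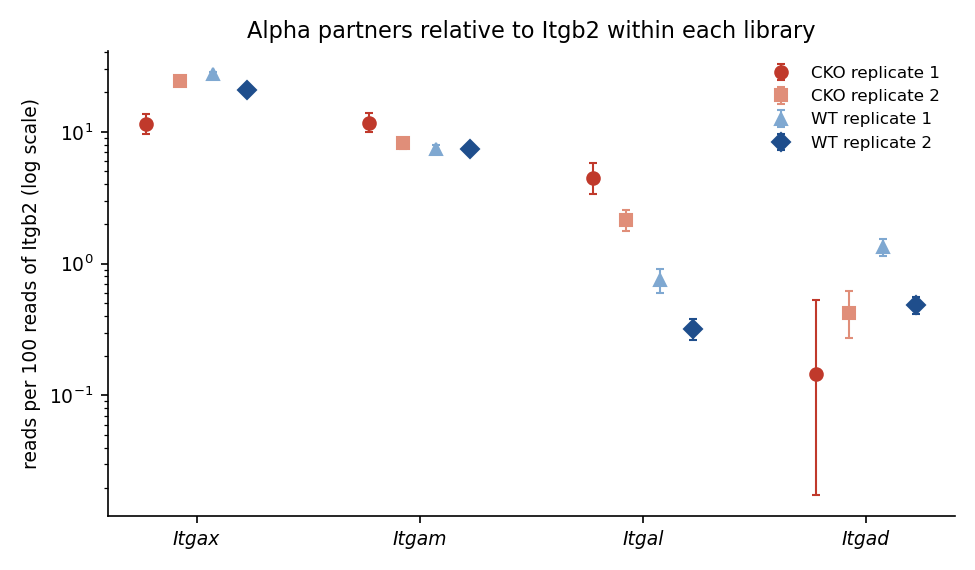
Reads of each alpha partner per 100 reads of Itgb2 within each library, on a log axis, with 95% counting intervals. Itgal runs from 4.47 in CKO replicate 1 down to 0.320 in WT replicate 2, and Itgax is lowest in CKO replicate 1.

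Per 100 reads of Itgb7, Itga4 had 245 and 142 in CKO, against 122 and 105 in WT. Against Itgb1, its other partner, Itga4 had 0.808 and 0.926 reads per 100 in CKO and 2.41 and 5.35 in WT. Itga9 had 1.04 and 0.979 reads per 100 of Itgb1 in CKO and 1.77 and 2.79 in WT. The ratio of the beta chains themselves moved further, with 8.84 and 23.9 reads of Itgb2 per 100 of Itgb1 in CKO and 67.9 and 175.02 in WT. These ratios are given as descriptions of 4 libraries, and no test of them was made.

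Set against the 7 macrophage markers of the same library, the subunits followed several patterns. Itgam had 12.1 and 22.8 reads per 1000 macrophage marker reads in CKO and 22.6 and 19.6 in WT, and the groups overlapped. Itgb2 had 104 and 279 in CKO and 303 and 264 in WT, with CKO replicate 2 between the WT values and CKO replicate 1 apart. The same held for the range of Itgax, with 11.9 and 67.7 in CKO and 83.0 and 55.0 in WT. Itga4 was nearly level, at 9.47, 10.8, 10.8 and 8.07 in CKO replicates 1 and 2 and WT replicates 1 and 2.

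Itgad and Itgb7 were below WT in both CKO libraries on this scale. Itgad had 0.152 and 1.18 reads per 1000 macrophage marker reads in CKO and 4.03 and 1.28 in WT. The 95% counting intervals of CKO replicate 2 (0.762 to 1.74) and WT replicate 2 (1.10 to 1.48) overlap. For Itgb7 the nearest values were almost equal too, with 3.86 and 7.58 in CKO and 8.79 and 7.67 in WT. Itgal, Itga9 and Itgb1 were above WT in both CKO libraries, with Itgal at 4.62 and 5.94 in CKO and 2.26 and 0.845 in WT. Itga9 had 12.2 and 11.4 in CKO and 7.89 and 4.2 in WT, and Itgb1 had 1172 and 1165 against 446 and 151. The divisor was itself lower in CKO, with marker sums of 13220 and 19228 scaled reads against 42781 and 150634 in WT. A gene of equal level in all libraries would thus stand above WT here. The share of all genes above WT on this scale was not computed. The macrophage markers themselves did not move as 1: Cd163 and Mertk had log2 changes of 0.62 and -0.03, against -3.08 for Adgre1 and -3.22 for Cd68.

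**Figure D4:**
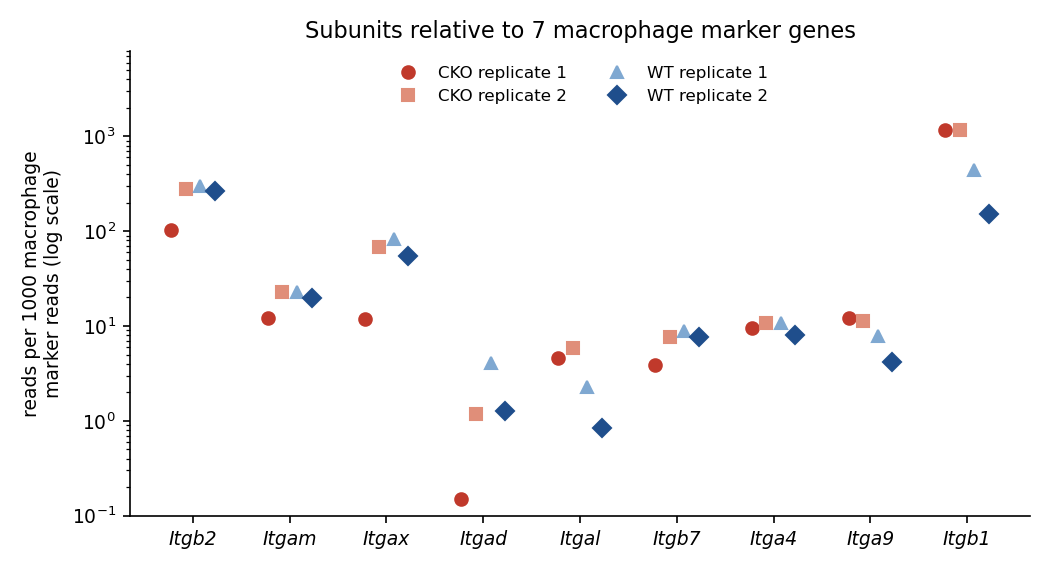
Reads of each subunit per 1000 reads of 7 macrophage markers in the same library, on a log axis. The marker sum is lower in both CKO libraries than in both WT libraries. CKO replicate 2 and both WT libraries lie close together for Itgb2, Itgam, Itgax, Itga4 and Itgb7, CKO replicate 1 is low for most of these, and Itgal, Itga9 and Itgb1 are higher in both CKO libraries.

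Levels of different subunits were compared as RPKM, reads divided by annotated exon length in kb and by library depth. In WT they ranked Itgb2 (322 ± 215), Itgb1 (194 ± 11.4), Itgax (46.1 ± 23.5), Itgam (14.5 ± 9.66), Itgb7 (10.3 ± 6.90), Itga9 (2.37 ± 0.88), Itga4 (2.24 ± 1.31), Itgad (1.54 ± 0.020) and Itgal (0.645 ± 0.084; SD, n = 2 each). The ranges of Itgb2 and Itgb1, of Itgam and Itgb7, of Itga9 and Itga4, and of Itga4 and Itgad overlapped, so their order over libraries is not resolved. Within each of the 4 libraries Itgam was above Itgb7, while for the 3 other pairs the WT libraries gave opposite orders. Counted over the 1574 exon bases that Itgam does not share with Gm49368, an alternative chosen after the data were seen, its WT mean was 46.3, about the level of Itgax.

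In CKO the beta 1 chain led, with Itgb1 at 188 ± 54.1 and Itgb2 at 45.1 ± 38.7 on the same scale (SD, n = 2). Itgax was at 6.24 ± 7.0, Itgam at 2.43 ± 1.66, Itgb7 at 1.45 ± 1.02 and Itga9 at 1.00 ± 0.25, with ranges that overlapped between neighbours. Over all exons Itgax was above Itgam within both CKO libraries. It was at 1.29 against 1.26 in CKO replicate 1 and 11.2 against 3.60 in CKO replicate 2. Counted over the exon bases not shared with Gm49368, Itgam was at 4.02 and 11.5, above Itgax in both. The order of Itgax and Itgam in CKO is thus not resolved. Itgb7 was above Itga9 in 1 of the 2 CKO libraries. Itgal, at 0.542 ± 0.247, and Itga4, at 0.483 ± 0.183, overlapped as well, though Itgal was higher in both, and Itgad was last at 0.112 ± 0.134. Itgb2 and Itgb1 thus did not overlap in CKO, where in WT they did.

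Itgam, Itgax and Itgad lie head to tail within 161 kb of chromosome 7. Their log2 changes were -2.67 (SE 0.73), -3.58 (SE 1.07) and -4.44 (SE 1.05), so the order of the 3 is not resolved. With a pseudocount of 10 they were -2.62, -3.54 and -3.28, and Itgax was then lower than Itgad. Itgad had 2 reads in CKO replicate 1. Of 13 genes tested within 100 kb of this cluster, 10 are not integrins. Pycard, which encodes the inflammasome adaptor ASC and lies upstream of Itgam, was at -2.10, and Cox6a2, inside Itgad on the opposite strand, at -3.16 with 4, 10, 34 and 105 reads. The downstream genes Armc5 and Tgfb1i1 were at 0.07 and 0.99, and the pseudogene Gm6916, farther downstream, was at -1.55 with 9, 7, 28 and 19 reads. The window was chosen by position, not all of its 10 other genes are named here, and none passed the adjusted threshold. With a strand setting not given in the sources used here, reads of Itgad and Cox6a2 cannot be fully told apart.

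**Figure D5:**
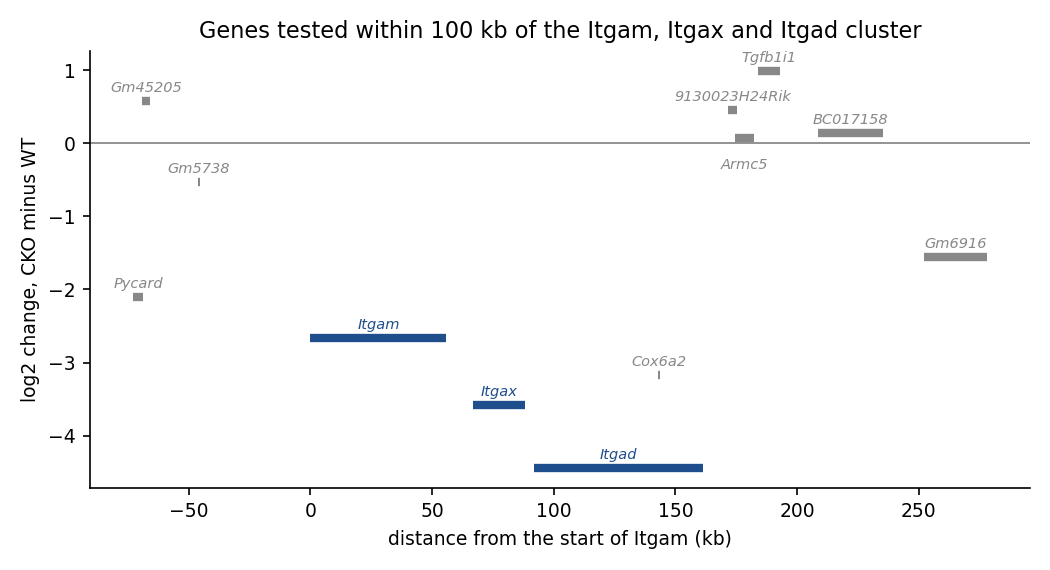
Log2 change from WT to CKO of 12 of the 13 genes tested within 100 kb of the Itgam, Itgax and Itgad cluster, against distance from the start of Itgam in kb, with bars spanning each gene and integrins in blue. The 3 integrins lie between -2.67 and -4.44, and most genes outside lie between -1 and 1, Pycard, Cox6a2 and Gm6916 being lower.

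The genes nearest to a subunit in pattern were sought among 11157 named genes of higher level, by the root mean square distance between log2 profiles over the 4 libraries, each centred on its mean. For Itgam they were Dock2 (0.030), a guanine exchange factor of leukocyte migration, the chemokine gene Ccl9 (0.032), the phagosomal metal transporter gene Slc11a1 (0.038), Myof (0.044) and Fmn1 (0.047). For Itgb2 they were Ly9 (0.047), Tlr8 (0.051), Cd200r1 (0.060), Tnip3 (0.060) and Capg (0.071). Itgax had no neighbour as near, the closest being Stra6l (0.20), the B cell receptor inhibitor gene Cd22 (0.26), the coagulation factor gene F7 (0.28) and Kcnn4 (0.28). For Itgb1 they were Ino80b (0.013), Ifitm2 (0.027), Clip2 (0.031), Mef2d (0.035) and Pigf (0.036). Among the 9 subunits the nearest pair was Itgam and Itgb7 (0.13), and the farthest was Itgad and Itgb1 (2.31). With 4 libraries such distances describe these libraries alone.

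The other 17 integrin subunit genes went in both directions. Of 14 tested, 6 were lower and 8 higher in CKO, with a median log2 change of 0.38, where 48.9% of all genes tested were lower by sign. In limma 2 were lower and 0 higher at an unadjusted p under 0.05, where 7.26% of all genes tested were lower and 3.35% higher. Of these subunits 0 passed the adjusted threshold. The lower ones were Itgb5 (-0.99, SE 0.34) and Itgav (-1.47, SE 0.55), which pair with each other as a vitronectin receptor. Both, and the fibronectin receptor gene Itga5 (-1.22, SE 0.58), named after its values were seen, had the library order of the leukocyte list. Both CKO libraries were thus below both WT libraries. Over all genes tested 17.0% had that full order, and 26.8% had both CKO libraries below both WT libraries. Itgav had 658 and 1113 reads in CKO and 1318 and 3568 in WT. The collagen receptor gene Itga1 and the laminin receptor gene Itga3 were at 1.27 (SE 0.59) and 1.33 (SE 0.61). Each had both CKO libraries above both WT libraries, as did 23.9% of all genes tested, and both were at 0.49 without WT replicate 2. Without WT replicate 1, 5 of these 14 were higher at an unadjusted p under 0.05, and the lower ones became 0 without CKO replicate 1 or without WT replicate 2.

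Ligands of leukocyte integrins went in both directions. Of 22 listed 16 were tested, 6 lower and 10 higher in CKO (median 0.41), where 48.9% of all genes tested were lower by sign. Of these ligands 0 passed the adjusted threshold in limma. At an unadjusted p under 0.05 in limma, 1 was lower and 1 higher, where 7.26% of all genes tested were lower and 3.35% higher. Spp1, which encodes osteopontin, a ligand of alpha 4 and alpha 9 integrins that macrophages also make, had 52 and 875 reads in CKO and 1386 and 5154 in WT, a log2 change of -3.77 (SE 1.40). It was -1.82 without CKO replicate 1 and -5.72 without CKO replicate 2. F11r, the junctional ligand JAM-A of LFA-1, had 5261 and 8711 reads in CKO and 3774 and 1337 in WT, a change of 1.46 (SE 0.56), which was 0.72 without WT replicate 2 and 2.20 without WT replicate 1. Icam2, an endothelial ligand of LFA-1, and Tnc, a ligand of alpha 9 beta 1, were at 1.14 (SE 0.49) and 1.03 (SE 0.43). The endothelial marker sum was 46166 and 69130 in CKO and 37567 and 13446 in WT, and its part in F11r and Icam2 was not tested. Leaving out WT replicate 1 gave 7 higher ligands at an unadjusted p under 0.05, and leaving out any 1 of the other libraries gave 0. The lower ligands were 0 without CKO replicate 1 or WT replicate 2, and 2 without CKO replicate 2.

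Genes of integrin activation and signalling were lower in CKO more often than they were higher. Of 34 listed 32 were tested, 23 lower and 9 higher (median -1.09), where 48.9% of all genes tested were lower by sign. Both CKO libraries were below both WT libraries for 19 of these genes, against the 26.8% of all genes tested. In limma 14 were lower and 1 higher at an unadjusted p under 0.05, where 7.26% of all genes tested were lower and 3.35% higher. Of these signalling genes 0 passed the adjusted threshold. Among those of smallest p were Fyb, an adaptor between T cell and myeloid receptors and integrins (-2.68, SE 0.67), Vav1, an exchange factor for small GTPases (-2.73, SE 0.70), and Ptk2b, the focal adhesion kinase relative PYK2 (-1.17, SE 0.31). Vav1 had 190 and 457 reads in CKO, against 979 and 3263 in WT. The kindlins, which bind beta tails, differed by isoform: leukocyte Fermt3 was at -2.49 (SE 0.75) and the widely expressed Fermt2 at 1.31 (SE 0.55), a pair chosen after their values were seen. Of the 6 genes listed as restraining integrins 4 were lower and 2 higher, near the 48.9% of all genes tested that were lower by sign. Without CKO replicate 1, 3 of the 32 were lower at an unadjusted p under 0.05 in place of 14. The higher ones were 6 without WT replicate 1 and 0 without any 1 of the other libraries.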

How the data were processed

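The deposited table holds 4 columns of log2 values, described by the authors as normalised counts. The inverse, 2 to the power of each value less 1, was whole within 0.01 for 100% of genes in each library, so the deposited log2 values are log2(reads + 1) with no scaling between libraries. Per the submitters' processing notes, FastQC and STAR 2.7.5c were run, with GRCm38.p6 as the build. How reads were counted, on which annotation and with what strand setting, was not given in the sources used here. Of the identifiers, 55094 matched GENCODE M21 with their version.

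Whole reads were scaled by median-of-ratios size factors over 19847 genes and taken to log2 with a pseudocount of 1, which understates the changes of low genes. The 16871 genes whose deposited log2 values averaged 3 or more were fitted in limma 3.58.1 (R 4.3.3) on group alone with a trend, two-sided, with Benjamini-Hochberg adjustment. Counting intervals are exact binomial, at 95%, and cover counting error only. Tables used Python 3.11.15, numpy 2.4.6, pandas 2.3.3 and scipy 1.17.1.

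Whether each library is from its own animal is unlabelled, and p-values then measure only the spread between these libraries, which may be technical. Numbers of replicates follow record order and pair no samples. Named are the 9 members, up to 4 genes of smallest p in each further list, and Itgae as a partner of Itgb7. The 5 genes nearest in pattern to 4 members were sought among genes with a mean of at least 6. Some genes of a window chosen by position are named too. RPKM were computed here from whole reads. The members and lists were chosen with earlier results of these data known. Other filters, scalings, weights, a pseudocount of 10 and each library left out were tried. Some genes under these rules are not reported here. Protein features planned were not analysed here.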

Additional observations from a re-analysis of the deposited data

How the results depend on the processing

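Of the 293 log2 changes of 21 genes under the naming rule under 14 alternatives, 279 kept their sign and their side of limma's adjusted threshold, 11 came to pass it, each without WT replicate 1, where 5.56% of all genes passed as lower and 4.96% as higher, and 3 changed sign, the last being Itgal (0.042) and Itgb1 (0.11) without CKO replicate 1 and Itgb1 (0.012) with quantile normalisation. Leukocyte integrins past the adjusted threshold were 0 to 3 with 1 library left out, and those lower at an unadjusted p under 0.05 were 3 to 7, against 2 without a filter, where 55487 genes entered and 1.39% of them were lower. Without scaling, the median change of all genes moved from 0.015 to 0.15, and genes lower and higher at an unadjusted p under 0.05 numbered 855 and 859, in place of 1224 and 566. For this and the counts that follow, all at an unadjusted p under 0.05, the cause was not tested. Other integrin subunits, 2 lower as reported, numbered 0 without a filter or unscaled and 1 with a minimum of 6, scaling by total reads or no trend, and with 1 library left out 0 to 3 were lower and 0 to 5 higher. Ligands, 1 lower and 1 higher as reported, were 0 lower without a filter, with a minimum of 6, unscaled, scaled by total reads, without a trend or with library weights. They were 0 higher without a filter, with a minimum of 6, scaled by total reads, without a trend, with a robust fit or with voom weights, and 0 to 2 lower and 0 to 7 higher with 1 library left out. Signalling genes, 14 lower and 1 higher as reported, were 2 lower without a filter and 3 to 19 with 1 library left out. They were 0 higher without a filter, with a minimum of 6, scaled by total reads, without a trend, with a robust fit or with voom weights, 2 with library weights, and 0 to 6 with 1 library left out. The median of the 9 subunits ranged from -3.47 to -1.86 with 1 library left out and from -2.67 to -2.53 in other settings that tested all 9. With a minimum of 6, where Itgad was not tested, the median of the other subunits was -2.44. Single subunits whose sign turned ranged, with 1 library left out, from -0.85 to 0.042 for Itgal and from -0.43 to 0.11 for Itgb1. Low read numbers limit Itgad, with 2 reads in CKO replicate 1, and Itgal. No paired analysis was possible because the labels give no replicate numbers that the groups share.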
